A study of Mus musculus with 27 samples.

Results

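The immediate early response factors of the T cell receptor (TCR) are transcription factors whose genes are switched on within minutes to hours of antigen contact, and 10 of them were followed here in CD8 T cells of mice. They were taken by gene symbol from the expression tables, as 10 of the 35275 genes listed, and comprised the orphan nuclear receptors Nr4a1, Nr4a2 and Nr4a3, the zinc finger factors Egr1, Egr2 and Egr3, the AP-1 subunits Fos, Jun and Junb, and Irf4. The study asked how let-7 microRNAs shape CD8 T cell differentiation, and measured RNA by sequencing in 27 libraries, 3 in each of 9 groups formed by 3 genotypes at 3 stages. All mice carried the P14 transgenic TCR, which recognises the gp33 peptide of lymphocytic choriomeningitis virus, on a Rag2-/- background, were of both sexes and 6 to 10 weeks old, and had received doxycycline at 2 mg/ml in their drinking water for 4 days, controls included. WT mice had no further transgene. The lin28Tg mice (Lin28bTg in the labels) expressed Lin28b, a protein that blocks maturation of let-7 precursors, from a transgene whose driver is not given in the sources used here. The let-7Tg mice expressed let-7g from a doxycycline-inducible transgene inserted at the Col1a1 locus. Naive cells came from lymph nodes and had no treatment, and whether they were purified further is not given in the sources used here. The 12 h cells had been activated with anti-CD3 at 2 μg/ml and anti-CD28 at 5 μg/ml. The day 5 cells were cytotoxic T lymphocytes (CTLs), started with anti-CD3 at 2 μg/ml and irradiated splenocytes, given IL-2 at 100 U/ml after 48 h, and kept for another 3 days. Doxycycline was present at 2 μg/ml in all 12 h and day 5 cultures. A stage therefore differed from the next in time, stimulus and culture together, and these cannot be told apart.

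When a peptide engages the TCR, calcium flux through calcineurin frees NFAT, the Ras and ERK cascade acts on serum response factor and its ternary complex partners, and NF-kB is released, and these pre-existing proteins switch on the immediate early genes without new protein synthesis. FOS and JUN proteins pair to form AP-1, which binds with NFAT at cytokine genes. EGR1 drives early activation genes, and EGR2 and EGR3 restrain the response. NR4A1 (Nur77) reports the strength of TCR signals, and the NR4A receptors together are known for limiting effector function in chronically stimulated T cells. IRF4 scales with TCR signal strength and, with BATF and AP-1, supports expansion and effector differentiation. The transcripts of most of these genes are short-lived, so their levels follow the recent history of a cell.

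The let-7 microRNAs pair through a seed at bases 2 to 8 with sites in messenger RNAs. The overexpressed member, let-7g-5p, is encoded at chr9:106178846-106178867 on the plus strand (GRCm38.p6, RefSeq) and is shown with its seed in capitals.
let-7g-5p: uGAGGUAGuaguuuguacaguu
The exact complement of this seed, CTACCTC, was searched in the 3′ untranslated region of the longest coding transcript of each gene (GENCODE vM21, GRCm38). It was present in 1 of the 10 members, Egr3, against 1168 of the 12557 tested genes with such a region, or 9.30%. The Egr3 site lies at chr14:70081416-70081422 on the plus strand, 1511 bases into a region of 2645 bases, and is shown because Egr3 carried the only match (match in capitals).
Egr3 site: cctccctgccCTACCTCacctcttctcagg
No match in this window says only that these letters are absent there. The untranslated regions of the other members ran from 485 bases in Junb to 3309 bases in Irf4.

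Promoter windows from 250 bases before to 50 bases after the transcription start (RefSeq, GRCm38.p6) were held for 8 of the 10 members, all but Egr1 and Egr3. They were searched on both strands for the cyclic AMP response element TGACGTCA, its shorter form TGACG (which also lies within the longer one), the AP-1 element TGANTCA, the EGR element GCGNGGGCG, the NR4A element AAAGGTCA, the NFAT core GGAAAA, the TATA box TATAAA and the CArG box that serum response factor binds. TGACG was found in 6 of the 8 windows, against 20.8% of all 32851 windows of this length, and Nr4a1, Nr4a2 and Nr4a3 each held 4 copies. TATAAA was found in 4 of the 8, against 13.6% of all windows. The EGR element was found in Nr4a1 and Nr4a2 (2 of 8, against 5.55%), and the CArG box in Egr2 alone (1 of 8, against 1.63%). The full TGACGTCA (1.79% of all windows), TGANTCA (7.81%), AAAGGTCA (1.51%) and GGAAAA (23.4%) were in none of the 8. The windows of Nr4a1 and Nr4a3, of Egr2 and Fos, and of Irf4 are given below as examples from the NR4A, EGR, AP-1 and IRF genes. Matches are in capitals and the transcription start is at base 251.
Nr4a1 (chr15:101266596-101266895, plus strand): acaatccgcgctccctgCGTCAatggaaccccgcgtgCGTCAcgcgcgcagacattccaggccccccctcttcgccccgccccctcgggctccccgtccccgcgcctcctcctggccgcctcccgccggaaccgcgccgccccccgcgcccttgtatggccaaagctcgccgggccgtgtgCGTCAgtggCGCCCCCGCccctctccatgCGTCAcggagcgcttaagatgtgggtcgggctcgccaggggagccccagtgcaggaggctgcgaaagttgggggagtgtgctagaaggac
Nr4a3 (chr4:48045055-48045354, plus strand): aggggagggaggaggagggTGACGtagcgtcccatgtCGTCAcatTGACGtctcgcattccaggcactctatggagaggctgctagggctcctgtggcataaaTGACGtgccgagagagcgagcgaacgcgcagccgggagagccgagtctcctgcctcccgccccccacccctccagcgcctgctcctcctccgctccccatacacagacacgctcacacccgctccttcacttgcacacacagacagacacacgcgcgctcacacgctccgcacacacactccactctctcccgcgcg
Egr2 (chr10:67537619-67537918, plus strand, 1 of 5 starts in the table and the nearest to the longest coding transcript): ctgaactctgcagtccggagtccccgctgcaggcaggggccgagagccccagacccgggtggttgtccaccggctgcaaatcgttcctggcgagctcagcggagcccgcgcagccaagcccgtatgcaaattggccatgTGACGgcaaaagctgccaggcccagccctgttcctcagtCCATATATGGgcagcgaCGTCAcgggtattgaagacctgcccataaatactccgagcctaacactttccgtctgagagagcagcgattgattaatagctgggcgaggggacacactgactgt
Fos (chr12:85473640-85473939, plus strand): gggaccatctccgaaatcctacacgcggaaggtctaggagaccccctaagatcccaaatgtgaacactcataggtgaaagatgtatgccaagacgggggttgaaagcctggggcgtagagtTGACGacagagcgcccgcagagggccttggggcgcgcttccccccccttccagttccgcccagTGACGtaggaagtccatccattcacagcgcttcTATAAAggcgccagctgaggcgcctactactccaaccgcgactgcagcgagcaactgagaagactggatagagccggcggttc
Irf4 (chr13:30748983-30749282, plus strand): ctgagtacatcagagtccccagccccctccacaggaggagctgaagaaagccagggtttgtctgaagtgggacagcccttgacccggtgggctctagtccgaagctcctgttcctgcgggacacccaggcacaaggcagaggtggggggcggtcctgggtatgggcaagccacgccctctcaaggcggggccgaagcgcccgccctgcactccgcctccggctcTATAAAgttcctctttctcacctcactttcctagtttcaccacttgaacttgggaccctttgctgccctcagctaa
In the Egr2 window the CArG box began 72 bases upstream of the start, between TGACG matches 111 and 55 bases upstream. In the Fos window TGACG began 129 and 66 bases upstream and the TATA box 33 bases upstream. The only match in the Irf4 window was a TATA box 26 bases upstream. These matches describe the sequence and not the binding of any factor.

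Levels are given as FPKM, fragments scaled by gene length and library size, so that genes can be compared per length. Between 13862706 and 23591069 reads were counted per library. The labels held: Lin28b was at 56.4 to 67.9 FPKM in naive lin28Tg cells, at 9.94 to 12.6 at 12 h and at 14.0 to 22.4 at day 5, and at no more than 0.0590 in any other library, while the Col1a1 transcript that marks the let-7g insertion was at 9.06 to 62.8 FPKM in let-7Tg libraries against at most 4.93 elsewhere. The CD8 T cell marker list summed to 4368 to 5615 FPKM in naive, 1349 to 1639 in 12 h and 2836 to 3597 in day 5 libraries. Naive lin28Tg libraries stood apart in markers of other cells. The sum of 7 myeloid markers was 186, 884 and 475 FPKM in them, against 46.5 to 83.9 in WT and 33.5 to 74.8 in let-7Tg, with Lyz2 ranging from 11.0 to 491 over the naive libraries. Erythroid markers summed to 343 to 1360 FPKM against 104 to 199 in WT and 1.42 to 32.8 in let-7Tg, and neutrophil markers to 35.2 to 106 against 6.58 to 12.2 and 1.87 to 14.6. NK cell markers summed to 73.5 to 112 against 25.7 to 51.8 and 17.7 to 34.7, CD4 T cell markers to 24.1 to 83.5 against 12.9 to 23.8 and 14.0 to 19.4, and B cell markers to 28.8 to 33.0 against 18.8 to 21.4 and 14.3 to 21.1, although Ms4a1 stayed at or under 0.279 in every naive library. The stromal marker sum was lower, at 40.5 to 46.8 against 63.3 to 64.6 and 69.3 to 75.8. It was carried by Pecam1 (38.2 to 73.6 FPKM over the naive libraries), and Col1a2, Col3a1 and Pdgfrb were at or under 5.32 in each. At day 5 the libraries of a given replicate number resembled each other across genotypes, and this is described with the day 5 results.

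**Figure D1:**
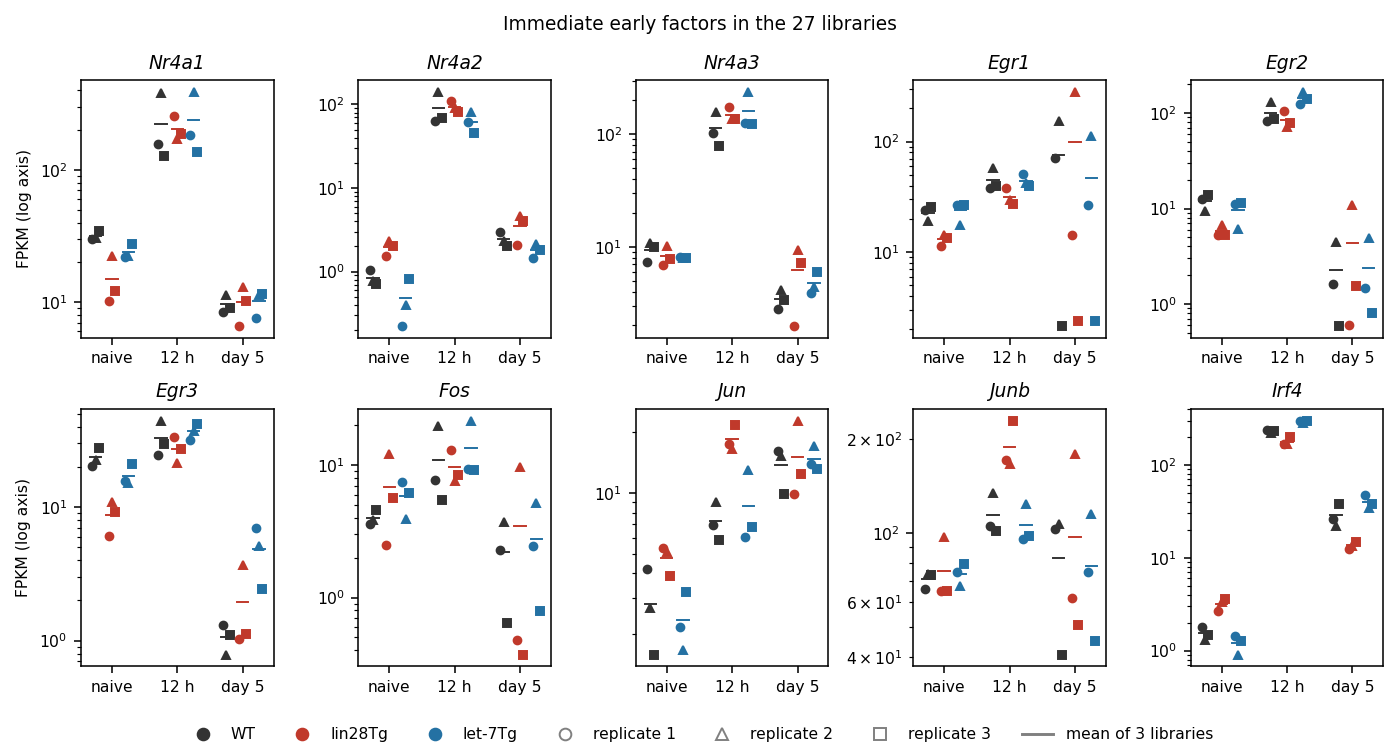
FPKM of each of the 10 factors (log axis) in all 27 libraries, by stage, genotype (colour) and replicate number (symbol), with short lines at the mean of 3 libraries. All 3 NR4A genes, Egr2 and Irf4 peak at 12 h in every genotype, and the day 5 values of Egr1 spread from 2.15 to 281.

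Activation for 12 h raised most of the factors in WT cells, and Irf4 and Nr4a2 changed the most. Genes were tested with limma on log2(FPKM + 0.5) and called at a Benjamini-Hochberg adjusted p under 0.05 over all tested genes. Fold changes on this scale understate those of genes with low levels. In WT cells 7 of the 10 members were called higher at 12 h than in naive cells and 0 lower, with a median log2 change of 2.21 against -0.01 over all 14453 genes tested. Calls were common at this contrast: 70.9% of all genes were called, 36.3% higher and 34.6% lower. In bulk RNA, fewer cells expressing a gene and less RNA per cell cannot be told apart. The 3 libraries of a group are described as biological replicates but not tied to separate animals in the labels, so p-values measure the spread between these libraries.

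All 3 nuclear receptors rose. Nr4a1 (chr15:101254269-101274795, GRCm38) was at 29.9, 30.5 and 34.8 FPKM in the 3 naive WT libraries and at 159, 380 and 127 after 12 h. Nr4a2 (chr2:57106830-57124003) went from 1.05, 0.770 and 0.708 FPKM to 62.6, 141 and 68.4. Nr4a3 (chr4:48045153-48086447) went from 7.32, 10.7 and 10.1 FPKM to 103, 159 and 78.9. For each of them every 12 h library lay above every naive library, and replicate 2 was the highest of the 12 h group. The log2 changes were 2.89 ± 0.35 (SE) for Nr4a1 (adjusted p = 1.39e-07), 6.22 ± 0.28 for Nr4a2 (1.48e-14) and 3.75 ± 0.35 for Nr4a3 (2.63e-09). In resting cells Nr4a1 was thus the most abundant of the family, and by 12 h the gap to Nr4a2 had narrowed from 31.7 against 0.842 FPKM to 222 against 90.7 FPKM as group means.

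The EGR genes behaved unevenly. Egr2 (chr10:67535475-67542188) was at 12.7, 9.32 and 13.9 FPKM in naive WT cells and at 81.8, 132 and 86.4 at 12 h, a log2 change of 3.27 ± 0.61 (adjusted p = 4.8e-05) with no overlap. Egr1 (chr18:34859823-34864984) was at 23.8, 19.0 and 25.5 FPKM in naive cells and at 37.7, 57.6 and 39.4 at 12 h, so that the groups did not overlap, but the difference of 1.22 ± 1.31 was not called (adjusted p = 0.42) in a model whose spread for this gene is set largely by the day 5 libraries. With the replicate number as a block within each stage, which takes up the part of that spread shared by libraries of a number, its standard error was 0.39 and it was called (adjusted p = 0.011). Egr3 (chr14:70077203-70082614) was at 20.4, 22.5 and 27.9 FPKM before and at 24.5, 44.3 and 29.4 after, with overlapping groups and a difference of 0.70 ± 0.33 (adjusted p = 0.064). In naive cells Egr1 and Egr3 were already at means of 22.8 and 23.6 FPKM, and without the block only Egr2 of this family was called higher at 12 h in WT.

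Among the AP-1 subunits Jun and Junb rose modestly. Jun (chr4:95049034-95052222, overlapping the antisense gene Junos) was at 4.18, 2.69 and 1.58 FPKM in naive WT cells and at 6.94, 9.02 and 5.86 at 12 h, a log2 change of 1.53 ± 0.30 (adjusted p = 9.1e-05). Junb (chr8:84974484-84978718, overlapping Prdx2 on the other strand) was the most abundant member in naive cells at 66.3, 73.6 and 73.1 FPKM and reached 106, 135 and 101, a change of 0.94 ± 0.37 (adjusted p = 0.026). Every 12 h library of Jun and Junb was above the naive ones, but the Junb call was lost without WT naive replicate 1 or any single WT 12 h library, with an adjusted p of up to 0.0816. Whether counting used strand is not given in the sources used here, so reads of Jun and Junos, or of Junb and Prdx2, may have been mixed. Fos (chr12:85473890-85477273) was at 3.60, 3.83 and 4.60 FPKM in naive cells and at 7.66, 19.8 and 5.43 at 12 h, a difference of 1.40 ± 0.73 that was not called (adjusted p = 0.091) except with the replicate block (standard error 0.51, adjusted p = 0.021). Its 12 h libraries all lay above the naive ones and replicate 2 was far above the other two.

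Irf4 (chr13:30749226-30766976), which encodes the lymphoid interferon regulatory factor, changed by the largest factor. It was at 1.80, 1.31 and 1.47 FPKM in naive WT cells and at 237, 223 and 233 at 12 h, a log2 change of 7.09 ± 0.16 (adjusted p = 1.36e-18). The 12 h libraries of Irf4 lay far closer together than those of the NR4A genes. The SD within genotypes at 12 h was 0.09 on the log2 scale for Irf4, smaller than that of most tested genes (median 0.15), and 0.68 for Nr4a1 and 0.70 for Fos, each larger than that of most tested genes (98.73% and 98.86%).

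The rise at 12 h had the same members in it in lin28Tg and let-7Tg cells, with exceptions at Egr3 and Junb. In lin28Tg cells 8 members were called higher and 0 lower, where 73.7% of all genes were called (36.4% higher and 37.3% lower). In let-7Tg cells 7 were called higher and 0 lower, where 69.3% of all genes were called (35.6% higher and 33.7% lower). Egr3 was called in both transgenic genotypes, with log2 changes of 1.89 ± 0.33 in lin28Tg (adjusted p = 2.41e-05) and 1.36 ± 0.33 in let-7Tg (0.00094). Junb was called in lin28Tg cells (1.62 ± 0.37, adjusted p = 0.00041) and not in let-7Tg cells (0.78 ± 0.37, adjusted p = 0.062). The difference between genotypes in the 12 h change was not called for Egr3 or Junb, with adjusted p of 0.14 and 0.53 for lin28Tg against WT. Without the replicate block Egr1 and Fos were called in none of the 3 genotypes. With it, 9 members were called in WT, 9 in lin28Tg and 10 in let-7Tg, where 72.9%, 75.8% and 71.4% of all genes were called. The calls gained were Egr1 in lin28Tg (1.52 ± 0.39, adjusted p = 0.0022), Egr1 and Fos in WT, and Egr1, Fos and Junb in let-7Tg (adjusted p = 0.014, 0.030 and 0.0031).

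From 12 h to day 5 the NR4A genes, Egr2, Egr3, Fos and Irf4 fell in all 3 genotypes. In WT cells 8 members were called, 7 lower and 1 higher, where 67.5% of all genes were called (33.0% higher and 34.5% lower). In lin28Tg cells 8 were called lower and 0 higher, where 66.4% of all genes were called (32.0% higher and 34.5% lower), and in let-7Tg cells 7 were called lower and 0 higher, where 67.1% were called (33.6% in each direction). Nr4a1 was at 8.43, 11.3 and 9.01 FPKM in WT CTLs, Nr4a2 at 2.95, 2.35 and 2.03, and Nr4a3 at 2.81, 4.16 and 3.35. Every one of these values lay below all WT values at 12 h, and the log2 changes were -4.46 ± 0.35, -5.03 ± 0.28 and -4.97 ± 0.35. Egr3 dropped to 1.32, 0.787 and 1.11 FPKM in WT CTLs, a change of -4.53 ± 0.33 (adjusted p = 7.33e-11). The replicate block added Junb in WT (-0.72 ± 0.21, adjusted p = 0.0058) and Junb (-0.67 ± 0.21, 0.0091) and Egr1 (-1.26 ± 0.39, 0.0093) in let-7Tg as lower.

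Irf4 kept more of its 12 h level than the nuclear receptors, at 25.9, 22.1 and 37.6 FPKM in WT CTLs, a change of -3.19 ± 0.16 (adjusted p = 1.71e-13). Jun took the other direction in WT cells, with 16.2, 15.3 and 9.95 FPKM at day 5 above all 12 h values, a change of 0.72 ± 0.30 (adjusted p = 0.038). That call was lost without WT 12 h replicate 1 or 3 or WT day 5 replicate 1 or 2, with an adjusted p of up to 0.12. In let-7Tg cells the Jun change was 0.67 ± 0.30 (adjusted p = 0.053, and 0.041 with the replicate block) and in lin28Tg cells, where Jun had been highest at 12 h, -0.47 ± 0.30 (0.18). The Fos call in WT cells (-2.22 ± 0.73, adjusted p = 0.010) was lost without WT 12 h replicate 2 or WT day 5 replicate 3, with an adjusted p of up to 0.0648. In lin28Tg cells Fos fell by 2.38 ± 0.73 on the log2 scale (adjusted p = 0.0066) with overlapping groups, and this call was lost without lin28Tg day 5 replicate 1 or 3, with an adjusted p of up to 0.0541.

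**Figure D2:**
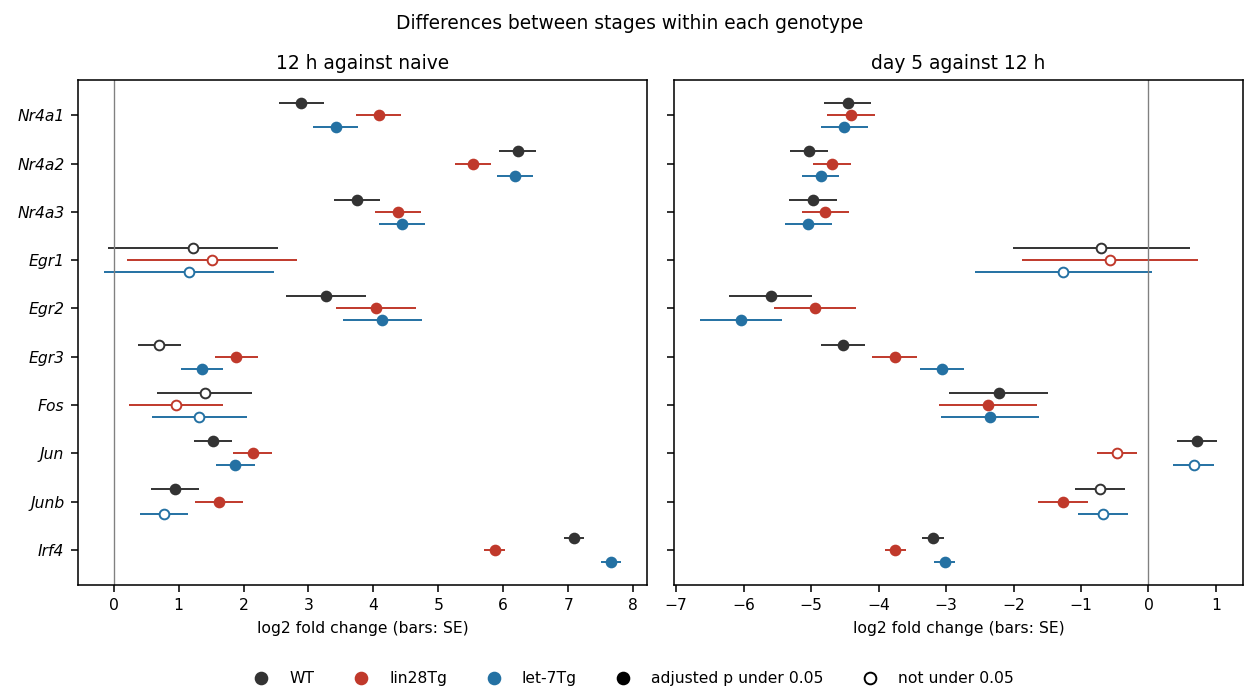
Log2 fold changes of the 10 factors between consecutive stages in WT, lin28Tg and let-7Tg cells, fitted without the replicate block, with bars for the standard error and filled symbols for an adjusted p under 0.05. Irf4 and Nr4a2 show the largest rise at 12 h (7.09 and 6.22 in WT), and the Egr1 bars are the widest (SE 1.31).

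Measured against naive cells, CTLs held more Irf4, Jun and Nr4a2 and less Egr3 in all 3 genotypes. In WT, 7 members were called, 3 higher and 4 lower, where 65.0% of all genes were called. In lin28Tg 4 were called, 3 higher and 1 lower, where 68.1% of all genes were called, and in let-7Tg 6 were called, 3 in each direction, where 62.2% of all genes were called. The 3 called higher were the same in each genotype. Their log2 changes in WT were 3.90 ± 0.16 for Irf4, 2.25 ± 0.30 for Jun and 1.20 ± 0.28 for Nr4a2. Egr3 changed by -3.83 ± 0.33 in WT, -1.87 ± 0.33 in lin28Tg and -1.70 ± 0.33 in let-7Tg. Nr4a1 and Egr2 were lower than in naive cells in WT (-1.57 ± 0.35 and -2.33 ± 0.61) and in let-7Tg (-1.09 ± 0.35 and -1.90 ± 0.61), and in lin28Tg cells, where both had started lower, the differences were -0.33 ± 0.35 and -0.90 ± 0.61 and were not called. With the replicate block Egr2 (-0.90 ± 0.33, adjusted p = 0.023), Fos (-1.42 ± 0.51, 0.021) and Egr1 (0.95 ± 0.39, 0.039) were also called in lin28Tg. The let-7Tg calls of Nr4a1 and Egr2 were lost without let-7Tg day 5 replicate 1 and replicate 3, with adjusted p of 0.0586 and 0.0598, and the Nr4a2 call in lin28Tg (0.84 ± 0.28) without lin28Tg day 5 replicate 2, with an adjusted p of 0.0703.

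Before activation, lin28Tg cells held less Nr4a1, Egr1, Egr2 and Egr3 and more Irf4 and Nr4a2 than WT cells. This made 6 called members of 10, in a comparison in which 33.9% of the 13277 tested genes were called (19.4% higher and 14.5% lower in lin28Tg). The median log2 difference over the members was -0.10 and that over all genes -0.03. Against let-7Tg, 7 members were called in naive lin28Tg cells, 3 higher and 4 lower, where 44.3% of all genes were called (22.7% higher and 21.5% lower). Between let-7Tg and WT no naive member was called by limma, where 0.738% of all genes were called, and 2 members had an unadjusted p under 0.05.

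Nr4a1 was at 10.2, 22.2 and 12.2 FPKM in naive lin28Tg cells, below every WT library (29.9 to 34.8), with a log2 difference of -1.19 ± 0.22 (adjusted p = 0.0036). In let-7Tg cells it was at 22.0, 22.2 and 27.5, also below every WT library, but the difference of -0.44 ± 0.22 was not called (adjusted p = 0.40). Nr4a2 was at 1.55, 2.32 and 2.01 FPKM in lin28Tg cells, above all WT libraries and above the 0.224, 0.402 and 0.816 of let-7Tg. The Nr4a2 difference was 0.83 ± 0.22 from WT (adjusted p = 0.018) and 1.35 ± 0.22 from let-7Tg (0.0013), on few reads, since the lowest naive library held 8. Its call against WT was lost without WT replicate 2 or 3 or lin28Tg replicate 2 or 3, with an adjusted p of up to 0.0689. Nr4a3 overlapped in all 3 genotypes, at 6.83 to 10.2 FPKM in lin28Tg, 7.32 to 10.7 in WT and 7.97 to 8.09 in let-7Tg.

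The EGR genes were all lower in naive lin28Tg cells. Egr3 was at 6.05, 10.9 and 9.25 FPKM, against 20.4 to 27.9 in WT and 15.1 to 20.9 in let-7Tg, without overlap with either. Its log2 difference from WT, -1.46 ± 0.19 (adjusted p = 0.00079), was the largest among the members. Egr2 was at 5.33, 6.66 and 5.30 FPKM against 9.32 to 13.9 in WT (-1.03 ± 0.23, adjusted p = 0.0081) and 6.09 to 11.5 in let-7Tg. Egr1 was at 11.4, 14.2 and 13.5 FPKM against 19.0 to 25.5 in WT (-0.83 ± 0.16, adjusted p = 0.0047) and 17.7 to 26.9 in let-7Tg. None of these 3 differences from WT lost its call when any 1 naive library was left out. Against let-7Tg, Egr1 (-0.84 ± 0.16) and Egr3 (-0.97 ± 0.19) were likewise called without any 1 library. Without all libraries of replicate number 3, and with all 27 libraries in 1 fit, Egr1 lost both calls and Egr2 its call against WT. The adjusted p reached 0.71 and 0.69 for Egr1 against WT and let-7Tg, and 0.25 for Egr2. Both Egr3 calls were kept there. The calls of Egr2 (-0.66 ± 0.23, adjusted p = 0.041, overlapping), Nr4a1 (-0.75 ± 0.22, 0.020, overlapping) and Jun (0.90 ± 0.30, 0.032) against let-7Tg were lost without 4, 3 and 4 of the 9 libraries, with adjusted p of up to 0.14, 0.0785 and 0.10. The libraries concerned were lin28Tg replicates 1 and 3 for Egr2 and Nr4a1, with let-7Tg replicates 1 and 3 for Egr2 and replicate 3 for Nr4a1, and replicates 1 and 2 of both genotypes for Jun.

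Irf4 was higher in naive lin28Tg cells, at 2.64, 3.30 and 3.61 FPKM, than in any WT library (1.31 to 1.80) or let-7Tg library (0.906 to 1.44). The log2 differences were 0.82 ± 0.17 from WT (adjusted p = 0.0056) and 1.11 ± 0.17 from let-7Tg (0.00083), and both were called without any 1 library. The call against WT was lost without all libraries of replicate number 2 or of number 3 (adjusted p of up to 0.11). Fos and Junb overlapped between genotypes. Fos ranged from 2.48 to 12.2 FPKM over the lin28Tg libraries, the largest ratio of highest to lowest of any naive member there, and its highest value, in replicate 2, fell in the library with the largest myeloid, erythroid and neutrophil marker sums. Without that library Nr4a1, Egr1, Egr2 and Egr3 differed from WT by -1.54, -0.92, -1.15 and -1.66, and Irf4 by 0.77, all still called, while Nr4a2 (0.71) had an adjusted p of 0.069. The naive lin28Tg library with the smallest myeloid sum, replicate 1, held the lowest Nr4a1, Egr1 and Egr3 of its group and also the lowest Irf4 and Nr4a2. Of 11 tested heat shock and handling stress genes, 6 were called higher in naive lin28Tg cells than in WT and 0 lower, where 19.4% of all genes were called higher, and 9 were called higher than in let-7Tg, where 22.7% were. The part of other cell types or of handling in these differences was not tested.

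At 12 h the lin28Tg cells held more Jun and Junb and less Irf4 than WT cells, and the EGR and NR4A differences of naive cells were not seen as calls. In this comparison 3 of 10 members were called, where 8.33% of the 12239 tested genes were called (5.87% higher and 2.47% lower in lin28Tg). Against let-7Tg 4 members were called, 2 higher and 2 lower, where 30.1% of all genes were called (16.5% higher and 13.6% lower). Between let-7Tg and WT no member was called by limma, where 2.94% of all genes were called, and 2 had an unadjusted p under 0.05. The change of lin28Tg against WT from naive to 12 h was itself not called for Nr4a1 (1.19 ± 0.49, adjusted p = 0.16) or Egr3 (1.19 ± 0.47, 0.14). Myeloid markers summed to 14.2 to 27.3 FPKM in lin28Tg at 12 h, 9.34 to 16.8 in WT and 8.75 to 17.5 in let-7Tg. Erythroid markers summed to 497, 117 and 57.4 FPKM in lin28Tg replicates 1, 2 and 3, against 18.8 to 77.0 in WT and 0.774 to 3.75 in let-7Tg, and B cell markers to 2.71 to 3.04 against 1.46 to 1.76 and 1.56 to 1.83. The lin28Tg library with the highest Jun and Junb, replicate 3, had the lowest myeloid, erythroid, neutrophil, B cell, NK cell and stromal marker sums of its group. Its CD8 T cell marker sum was also the lowest of the group (1387 FPKM, against 1530 and 1471). Its CD4 T cell marker sum was the highest of the group (8.20 FPKM, against 7.83 and 6.78). The part of these cells in the 12 h differences was not tested.

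Jun was at 17.6, 16.6 and 21.8 FPKM in lin28Tg cells at 12 h, above every WT library (5.86 to 9.02) and every let-7Tg library (6.05 to 13.0). The log2 differences were 1.29 ± 0.24 from WT (adjusted p = 0.010) and 1.16 ± 0.24 from let-7Tg (0.0060), and neither lost its call without any 1 library. Both were lost without all libraries of replicate number 1 or of number 3 (adjusted p of up to 0.17 and 0.090). Junb was at 171, 166 and 229 FPKM, above the 101 to 135 of WT and the 95.4 to 124 of let-7Tg, with differences of 0.70 ± 0.14 (adjusted p = 0.015) and 0.85 ± 0.14 (0.0021). The Junb call against WT was lost without WT replicate 1 or 3, with an adjusted p of up to 0.0664. Their partner Fos did not separate the genotypes, with 13.1, 7.57 and 8.38 FPKM in lin28Tg, 7.66, 19.8 and 5.43 in WT and 9.35, 21.7 and 9.20 in let-7Tg.

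The NR4A genes at 12 h varied as much within genotypes as between them. Nr4a1 was at 256, 171 and 186 FPKM in lin28Tg and at 185, 390 and 137 in let-7Tg, against 127 to 380 in WT, and the log2 differences between genotypes lay between -0.07 and 0.08 with a standard error of 0.41. Replicate 2 was the highest library for Nr4a1, Nr4a2, Nr4a3, Egr2, Fos, Jun and Junb in both WT and let-7Tg, and in lin28Tg it was the highest for none of these 7. Nr4a3 was at 173, 138 and 135 FPKM in lin28Tg, 125, 238 and 123 in let-7Tg and 78.9 to 159 in WT. Nr4a2 was at 111, 91.3 and 80.3 FPKM in lin28Tg, all above the 60.8, 80.2 and 44.9 of let-7Tg, but the difference of 0.65 ± 0.28 was not called (adjusted p = 0.11).

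Of the EGR genes only Egr2 was called at 12 h, and only between lin28Tg and let-7Tg. It was at 106, 70.9 and 78.8 FPKM in lin28Tg and 125, 167 and 141 in let-7Tg, with WT between them at 81.8 to 132 and overlapping both. The log2 difference of -0.74 ± 0.18 (adjusted p = 0.014) lost its call without lin28Tg replicate 2 or 3, with an adjusted p of up to 0.0596. Egr1 was at 38.0, 29.4 and 27.3 FPKM in lin28Tg, below the 39.6 to 50.5 of let-7Tg without overlap, a difference of -0.46 ± 0.17 (adjusted p = 0.070). Egr3 overlapped between all genotypes, at 21.5 to 33.6, 24.5 to 44.3 and 31.8 to 41.8 FPKM in lin28Tg, WT and let-7Tg.

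**Figure D3:**
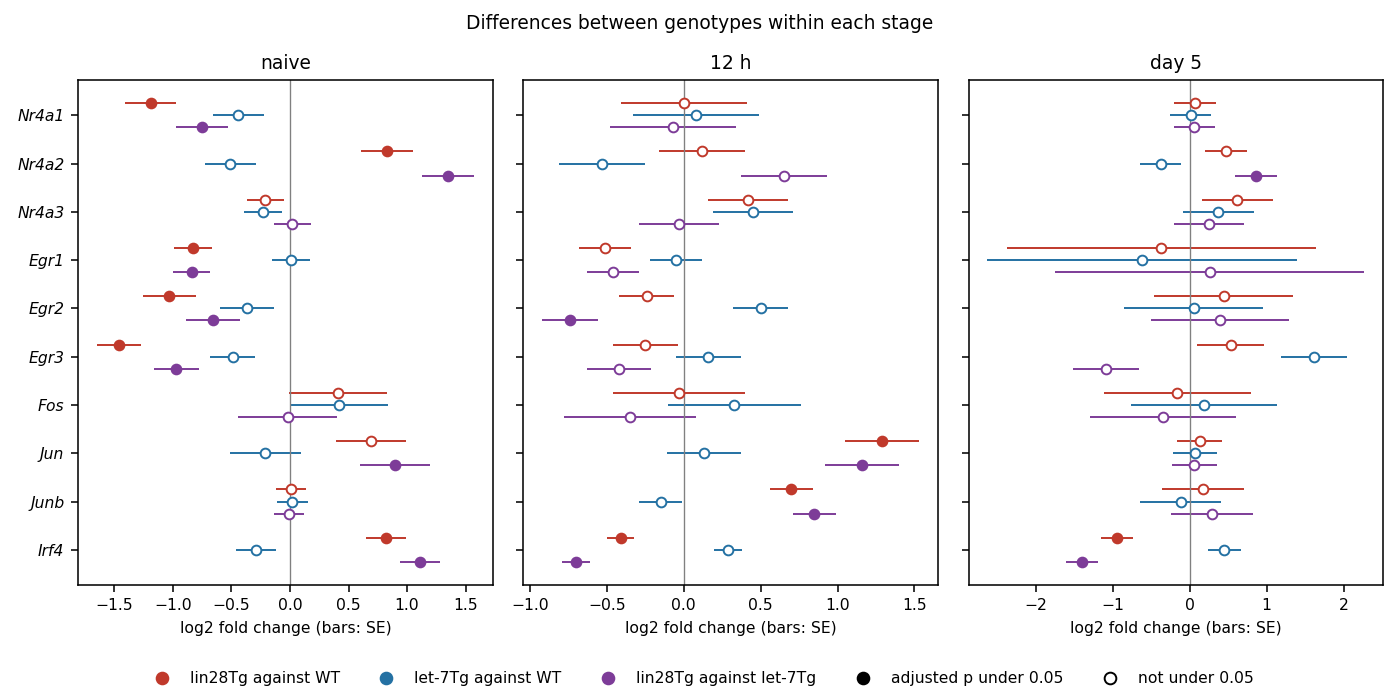
Log2 fold changes of the 10 factors between genotypes in naive, 12 h and day 5 cells, with bars for the standard error and filled symbols for an adjusted p under 0.05. The lin28Tg differences of the EGR genes and Nr4a1 are negative in naive cells (-0.83 to -1.46 from WT), those of Jun and Junb are positive at 12 h (1.29 and 0.70 from WT), and Irf4 is called in all 3 panels between lin28Tg and let-7Tg.

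Irf4 was the only member called between lin28Tg and let-7Tg at every stage, and its direction turned over with activation. At 12 h it was at 166, 168 and 198 FPKM in lin28Tg, 237, 223 and 233 in WT and 294, 282 and 299 in let-7Tg, with no overlap between any of the 3 genotypes. At day 5 it was at 12.5, 13.4 and 14.8 FPKM in lin28Tg, 25.9, 22.1 and 37.6 in WT and 47.0, 34.7 and 37.7 in let-7Tg, with WT and let-7Tg overlapping and lin28Tg below both. The order of the means was thus lin28Tg, WT, let-7Tg at both activated stages, whereas in naive cells lin28Tg was the highest.

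Between lin28Tg and let-7Tg the log2 difference of Irf4 was 1.11 ± 0.17 in naive cells, -0.70 ± 0.09 at 12 h (adjusted p = 0.00065) and -1.40 ± 0.21 at day 5 (0.0019). Each of these was called without any 1 library of its stage. The day 5 call was lost without all libraries of replicate number 1 (adjusted p = 0.05002). Between lin28Tg and WT the log2 difference of Irf4 was -0.41 ± 0.09 at 12 h (adjusted p = 0.025) and -0.95 ± 0.21 at day 5 (0.038). The 12 h call was lost without WT replicate 1 or 3 or lin28Tg replicate 1 or 2, with an adjusted p of up to 0.12, and the day 5 call was lost without any 1 day 5 library except WT replicate 2, with an adjusted p of up to 0.11. These leave-out fits had no replicate block. With the block and no library left out, the day 5 standard error was 0.17 (adjusted p = 0.013 by limma). Between let-7Tg and WT the differences of 0.29 ± 0.09 at 12 h and 0.45 ± 0.21 at day 5 were not called (adjusted p = 0.11 and 0.42).

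The turn was tested as a difference between genotypes in the change from one stage to the next. The rise of Irf4 from naive to 12 h was smaller in lin28Tg than in WT (log2 difference of the changes -1.22 ± 0.23, adjusted p = 0.0026) and smaller than in let-7Tg (-1.79 ± 0.23, adjusted p = 3.67e-05). From 12 h to day 5 the fall was larger in lin28Tg than in let-7Tg (-0.73 ± 0.23, adjusted p = 0.027), and not called against WT (-0.56 ± 0.23, adjusted p = 0.17). The differences in the 12 h change were called without any 1 library. The day 5 difference from let-7Tg was lost without lin28Tg 12 h replicate 3, let-7Tg 12 h replicate 2, or replicate 1 of lin28Tg or let-7Tg at day 5, with an adjusted p of up to 0.11. These comparisons share libraries. Irf4 was the only member called in any of them without the replicate block, and with it Jun was also called for the day 5 change of lin28Tg against let-7Tg (-1.14 ± 0.39, adjusted p = 0.043). Of all genes, 7.88% and 13.3% were called for the 12 h change of lin28Tg against WT and against let-7Tg, and 6.30% and 20.0% for the day 5 change. For let-7Tg against WT 0.0761% of all genes and no member were called for the 12 h change, and 1.44% of all genes and no member for the day 5 change, with 1 member under an unadjusted p of 0.05 in each by limma.

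**Figure D4:**
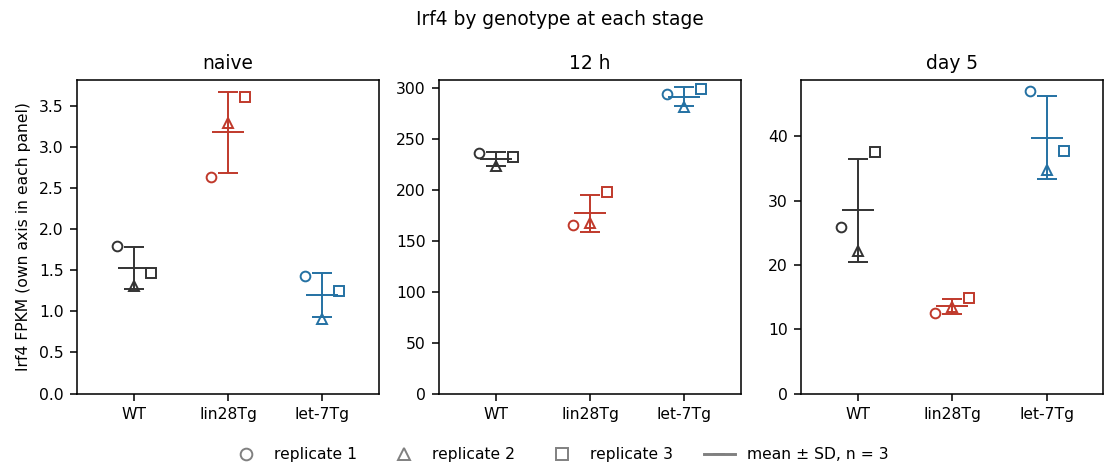
Irf4 FPKM in the 3 libraries of each genotype (symbols by replicate number) with the mean and SD, in separate panels with their own axes for naive, 12 h and day 5 cells. In naive cells lin28Tg lies highest (2.64 to 3.61), and at 12 h (166 to 198) and day 5 (12.5 to 14.8) it lies lowest.

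At day 5 the genotype separated few members, and the replicate number separated several. Between lin28Tg and WT 1 member, Irf4, was called, where 4.17% of the 13030 tested genes were called. Between lin28Tg and let-7Tg 2 were called, Irf4 and Nr4a2, where 21.3% of all genes were called. Nr4a2 was at 2.08, 4.60 and 3.98 FPKM in lin28Tg and 1.47, 2.15 and 1.83 in let-7Tg, with overlap, and its difference of 0.86 ± 0.27 (adjusted p = 0.049) lost its call without any 1 day 5 library except lin28Tg replicate 1, with an adjusted p of up to 0.16. Between let-7Tg and WT no member was called by limma, where 0.944% of all genes were called, and 1 had an unadjusted p under 0.05. That member was Egr3, at 6.92, 5.08 and 2.43 FPKM in let-7Tg, above every WT library (0.787 to 1.32), with a difference of 1.62 ± 0.43 (adjusted p = 0.13). Egr3 in lin28Tg CTLs was at 1.03, 3.65 and 1.11 FPKM.

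Egr1, Egr2, Fos and Junb followed the replicate number at day 5 in all 3 genotypes. Egr1 was at 70.7, 153 and 2.15 FPKM in WT replicates 1, 2 and 3, at 14.1, 281 and 2.38 in lin28Tg, and at 26.6, 112 and 2.35 in let-7Tg. Replicate 2 was thus the highest and replicate 3 the lowest in every genotype, and within lin28Tg the highest value was 118 times the lowest. Fos was at 2.30, 3.69 and 0.646 FPKM in WT, 0.476, 9.65 and 0.371 in lin28Tg and 2.43, 5.14 and 0.788 in let-7Tg, in the same arrangement. Junb, at 103, 107 and 40.8 FPKM in WT, 61.7, 179 and 50.7 in lin28Tg and 74.8, 115 and 45.1 in let-7Tg, also had it. Egr2 had replicate 2 highest in every genotype, at 4.51, 11.0 and 4.91 FPKM, against 0.589 to 1.64 in the other libraries.

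This arrangement, with replicate 2 highest and replicate 3 lowest in all 3 genotypes, was found in 3 of the 10 members and in 289 of the 13030 tested genes (2.22%), and replicate 2 was highest in all 3 genotypes in 4 members and in 6.59% of genes. Counting any replicate number, the same 1 was highest in all 3 genotypes in 4 members and in 33.3% of genes. By that count the members were near the share over all genes. The SD within genotypes on the log2 scale was 3.06 for Egr1, larger than that of 99.97% of tested genes, 1.42 for Fos (99.77%), 1.34 for Egr2 (99.72%) and 0.82 for Junb (98.91%), while that of Irf4 was 0.27 (69.69%), against a median of 0.19. In naive and 12 h cells no member had the same replicate highest in all 3 genotypes, where 15.7% and 10.7% of tested genes did. For 10 members a count of 0 is near these shares. The labels do not say what a replicate number shares at day 5. With the replicate number as a block at this stage, 13.4% of all genes were called between lin28Tg and WT, 4.03% between let-7Tg and WT and 36.0% between lin28Tg and let-7Tg, and the members called remained 1, 0 and 2. In lin28Tg the day 5 myeloid marker sum was 33.5, 109 and 78.5 FPKM in replicates 1, 2 and 3, against 4.84 to 12.8 in the other genotypes. It was carried by Fcer1g at up to 102, while Lyz2, Csf1r and Adgre1 were at or under 0.0807. The sums in replicates 1, 2 and 3 were 12.3, 12.8 and 5.95 in WT and 6.76, 7.73 and 4.84 in let-7Tg. Replicate 2 thus had the highest myeloid sum in every genotype, and replicate 3 the lowest in WT and let-7Tg. The part of other cells in the arrangement by replicate number was not tested. The differences between genotypes for these 4 members at day 5 were all below their standard errors (Egr1 -0.37 ± 2.01, Egr2 0.44 ± 0.90, Fos -0.16 ± 0.95 and Junb 0.17 ± 0.53 for lin28Tg against WT). With the replicate block their standard errors were 0.52, 0.40, 0.47 and 0.24, and none of the 4 was called (adjusted p of 0.68, 0.49, 0.85 and 0.67).

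**Figure D5:**
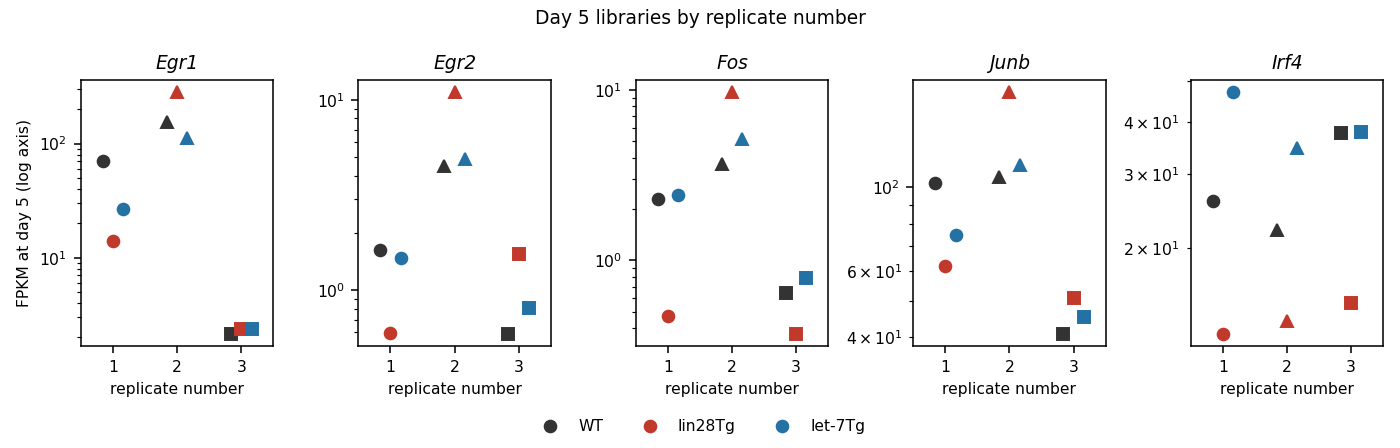
FPKM at day 5 (log axes) of Egr1, Egr2, Fos, Junb and, for contrast, Irf4 by replicate number, coloured by genotype. Egr1 replicate 3 lies between 2.15 and 2.38 in all 3 genotypes and replicate 2 between 112 and 281, while Irf4 is arranged by genotype, with lin28Tg at 12.5 to 14.8.

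The other genes of these pathways were described from lists of upstream factors, partners and targets, by counts beside the shares over all genes. At 12 h against naive WT cells 36.3% of all genes were called higher and 34.6% lower, with a median log2 change of -0.01. Of 13 AP-1 partners, 9 were called higher and 0 lower in this comparison, with a median of 1.20. They included Fosl1, which pairs with JUN proteins (1.25 ± 0.23 to 42.6 ± 10.8 FPKM, mean ± SD, n = 3), and Mafg, a small MAF protein (17.5 ± 2.10 to 93.4 ± 7.31). Between genotypes at 12 h, Jund, the third JUN gene, was higher in lin28Tg than in WT, like Jun and Junb. It was at 115 ± 11.6 FPKM in lin28Tg, 76.7 ± 4.74 in WT and 53.6 ± 4.09 in let-7Tg. Its log2 differences were 0.55 ± 0.10 (lin28Tg against WT, adjusted p = 0.012) and -0.56 ± 0.10 (let-7Tg against WT, 0.030). Between let-7Tg and WT, Jun (0.13 ± 0.24, adjusted p = 0.80) and Junb (-0.15 ± 0.14, 0.57) were not called. Batf3, a BATF factor that pairs with JUN, was at 14.6 ± 4.81 FPKM in lin28Tg against 3.06 ± 0.779 in WT (2.04 ± 0.49, adjusted p = 0.032). In contrast Fosl1 was lower in lin28Tg than in let-7Tg (30.8 ± 8.17 against 88.7 ± 28.1 FPKM, adjusted p = 0.0022). In all, 2 AP-1 partners were called higher and 0 lower in lin28Tg than in WT, 0 and 1 in let-7Tg against WT, and 3 and 1 in lin28Tg against let-7Tg. Of all genes, 5.87% were called higher and 2.47% lower in lin28Tg than in WT at 12 h, 16.5% and 13.6% in lin28Tg than in let-7Tg, and 2.94% in either direction between let-7Tg and WT.

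Among 11 relatives and partners of EGR, NR4A and IRF4 proteins, 3 were called higher and 6 lower at 12 h than in naive WT cells, where 36.3% and 34.6% of all genes were. Irf8, the closest relative of Irf4, took the other direction from Irf4 between genotypes at 12 h, at 446 ± 48.6 FPKM in lin28Tg, 252 ± 24.0 in WT and 223 ± 32.7 in let-7Tg, with a difference of 0.80 ± 0.12 between lin28Tg and WT (adjusted p = 0.0050). Ets1, a T cell ETS factor that was lowered by activation in WT (467 ± 8.50 to 160 ± 3.79 FPKM), was lower in lin28Tg at 105 ± 8.80 FPKM (-0.64 ± 0.07 from WT, adjusted p = 0.00074). Of this list 2 were called higher and 2 lower in lin28Tg against WT, where 5.87% and 2.47% of all genes were. Between let-7Tg and WT 0 were called, where 2.94% of all genes were. In lin28Tg against let-7Tg 3 were called higher and 2 lower, where 16.5% and 13.6% of all genes were. Of 9 tested genes of serum response factor and its partners, 1 was called lower in lin28Tg than in WT and 1 lower than in let-7Tg, in both cases Elk4, a ternary complex factor (35.6 ± 2.72 FPKM against 52.2 ± 5.11 and 73.2 ± 10.9), and 1 was called higher and 4 lower at 12 h in WT. The shares of all genes called lower were 2.47% and 13.6% in these genotype comparisons, so 1 of 9 was near the share over all genes in the comparison with let-7Tg.

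Of 12 NFAT and calcineurin genes, 5 were called higher and 5 lower at 12 h in WT, near the 36.3% and 34.6% of all genes. Nfatc1, itself an NFAT target, lay with Irf4 in the order of the genotypes at 12 h, at 51.0 ± 6.05 FPKM in lin28Tg, 64.3 ± 4.11 in WT and 97.2 ± 13.4 in let-7Tg, and was called in all 3 comparisons (adjusted p = 0.045, 0.026 and 0.00021). Of 12 NF-kB genes, 7 were called higher and 1 lower at 12 h in WT (median log2 change 0.76), with Nfkb1 going from 89.1 ± 5.01 to 543 ± 99.9 FPKM. In lin28Tg 3 NF-kB genes were called higher than in WT and 0 lower, where 5.87% and 2.47% of all genes were. They were led by the inhibitor gene Nfkbib (217 ± 13.6 against 148 ± 14.3 FPKM). Against let-7Tg 4 were called higher and 1 lower in lin28Tg, where 16.5% and 13.6% of all genes were. The lower one was Rela (83.3 ± 9.65 against 154.6 ± 27.15 FPKM, adjusted p = 0.0024 by limma). Of 13 feedback regulators of ERK, 8 were called higher and 3 lower at 12 h in WT, and between lin28Tg and let-7Tg 2 were higher and 6 lower, where 16.5% and 13.6% of all genes were. Dusp6, a phosphatase of ERK, was at 21.4 ± 3.83 FPKM in lin28Tg, 41.6 ± 0.191 in WT and 60.2 ± 10.1 in let-7Tg, while Spry2, a Sprouty inhibitor of the same cascade, was at 18.4 ± 1.73 in lin28Tg and 4.47 ± 1.14 in let-7Tg.

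Of 21 other immediate early genes, 8 were called higher and 7 lower at 12 h in WT, near the 36.3% and 34.6% of all genes. In lin28Tg 4 were called higher and 0 lower than in WT, where 5.87% and 2.47% of all genes were, among them Ier3 (15.5 ± 3.18 against 4.63 ± 1.55 FPKM), and 1, Myc, was called lower in let-7Tg than in WT (481 ± 54.2 against 672 ± 27.8). Of 21 genes reported as targets of the members, 17 were called higher and 2 lower at 12 h in WT, where 36.3% and 34.6% of all genes were. Their median log2 change was 3.37 against -0.01 over all genes. Ifng, an effector cytokine gene with AP-1 and NFAT sites, was at 1483 ± 178 FPKM in lin28Tg, 230 ± 62.9 in WT and 91.5 ± 35.3 in let-7Tg (2.69 ± 0.25 for lin28Tg against WT, adjusted p = 0.00053). Cd69, an early activation marker, had the opposite order, at 111 ± 9.91, 167 ± 1.35 and 253 ± 32.9 FPKM. Of the targets 4 were called higher and 2 lower in lin28Tg against WT, where 5.87% and 2.47% of all genes were. In let-7Tg against WT 1 was called higher and 1 lower, where 2.94% of all genes were called in either direction. In lin28Tg against let-7Tg 6 were called higher and 3 lower, where 16.5% and 13.6% of all genes were. There 3 of 21 lower was near the share over all genes. Of 12 heat shock and handling stress genes, 1, Hspa1b, was called higher in lin28Tg than in WT at 12 h (3.03 ± 0.353 against 1.15 ± 0.325 FPKM) and 0 lower, near the 5.87% and 2.47% of all genes. At 12 h in WT 7 of them were called higher and 1 lower, where 36.3% and 34.6% of all genes were.

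The genes whose group means were most like those of a member were ranked by Pearson's r over the 9 groups on the log2 scale, members left out. The points share stages and scaling, and a gene that peaks at 12 h can reach a high r by that alone. They were Zbtb17 (r = 0.998) and Ing5 (0.996) for Nr4a1, Mrpl43 and Cct3 (0.999 each) for Nr4a2, and Adrm1 and Dhx37 (0.997 each) for Nr4a3. For the EGR genes they were Pwp2 and Orai1 (0.998 each) for Egr2, Camsap2 (0.986) and Pja1 (0.984) for Egr3, and Gm15772 (0.985) and Gm26873 (0.979) for Egr1. For the AP-1 genes they were Ramp3 (0.992) and Hsbp1 (0.989) for Fos, Stk35 (0.986) and Pgp (0.985) for Jun, and Nr6a1 (0.992) and Mcat (0.985) for Junb. For Irf4 they were Slc29a1 (0.995), a nucleoside transporter gene at 108, 117 and 148 FPKM at 12 h in lin28Tg, WT and let-7Tg, and Adss (0.993), a gene of purine synthesis at 85.1, 102 and 108 FPKM. Zbtb17 spanned far less than Nr4a1, with group means from 22.0 to 52.3 FPKM, since r does not measure the size of a change. Within the members, Nr4a1 and Nr4a3, and Nr4a1 and Egr2, had r = 0.99 over the 9 group means.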

How the data were processed

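RNA was sequenced from 27 libraries. Per the labels' processing notes and the methods, the authors aligned reads with TopHat2 (2.0.9) and Bowtie2 (2.0.6) to GRCm38 and counted them with HTSeq (0.6.1), and they deposited FPKM values per library in 1 table per stage. The deposited group means of normalised counts (a signal scaled by size factors) were used only to recover whole reads, with 100% of values above 0 whole within 0.02 reads. The authors' columns of fold changes, p-values and heat map clusters were not used.

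FPKM values were divided by trimmed-mean scaling factors (30% of log ratios and 5% of levels trimmed), and log2(FPKM + 0.5) was tested with limma (3.58.1, trend, in R 4.3.3), among genes with at least 10 recovered reads in 3 libraries and 15 in all. Genotypes were compared in 1 fit per stage of 9 libraries, and stages and differences of changes in 1 fit of 27, with Benjamini-Hochberg adjustment over all genes tested. Members and lists were chosen with earlier results of these data known. All 10 members and, per list and direction, up to 2 called genes of lowest adjusted p could be named, as could the 2 genes most like each member. Mkl1 and Mkl2 are older names of Mrtfa and Mrtfb and are not in the tables. The fit and the recovery were tested on simulated data.

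Same-numbered libraries deviated together, with r over 0.1 in all pairs, at day 5 (0.24 to 0.72) and, for let-7Tg with WT, at 12 h (0.24 to 0.55). No other comparison met this rule, and let-7Tg with WT in naive cells had r from 0.06 to 0.47. The numbers were taken as pairing where the rule was met. The fit without the block is given first, and the block beside it where it changed a call. The block had a term per number within every stage, including those where the rule was not met. Alternatives were no scaling, median-of-ratios scaling, pseudocounts of 0.1 and 1, no filter, the replicate block, voom on recovered reads, other sets of libraries in the fit, and leaving out each library. Leaving out all libraries of 1 replicate number was added after seeing the day 5 data. Depth was 13862706 to 23591069 counted reads, and members had at least 8 reads in every library.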

Additional observations from a re-analysis of the deposited data

Results flagged for a closer look

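The change of Irf4 between stages differed between genotypes by a test of the difference itself. From naive to 12 h, lin28Tg differed from WT by -1.22 and from let-7Tg by -1.79 on the log2 scale, since Irf4 started higher in naive lin28Tg cells (3.19 ± 0.494 against 1.53 ± 0.253 and 1.20 ± 0.270 FPKM, SD, n = 3) and reached a lower level at 12 h (177 ± 18.2 against 231 ± 6.90 and 292 ± 9.01). From 12 h to day 5, lin28Tg differed from let-7Tg by -0.73. Without the libraries of replicate number 2 or of number 3 the difference from WT in the 12 h change had an adjusted p of up to 0.0827, and the day 5 difference was lost without the libraries of any 1 number, with an adjusted p of up to 0.26. The difference from let-7Tg in the 12 h change was called under all 10 alternatives, at an adjusted p of at most 0.0069. The naive lin28Tg values that enter both differences come from libraries with higher sums of myeloid, erythroid and neutrophil markers, and the part of these cells was not tested.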

How the results depend on the processing

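Of 88 calls of single members, 86 were kept without scaling, 86 with median-of-ratios scaling, 88 with either pseudocount, 81 without a filter, 88 with the replicate block and 85 with voom on recovered reads, and none turned its direction. Of the 23 calls between genotypes, 20 were kept with only the 6 libraries compared and 14 with all 27 in 1 fit. That fit takes the spread of Egr1, Egr2, Fos and Junb at day 5 into every stage. The calls it lost were of Egr1, Egr2 and Junb, and also of Nr4a1 in naive cells (lin28Tg against let-7Tg) and Irf4 at 12 h (lin28Tg against WT). With all 27 libraries, 4 members were called between lin28Tg and let-7Tg in naive cells and 2 at 12 h, 1 between lin28Tg and WT at 12 h, and 1 between let-7Tg and WT at day 5. Without scaling 1 was called between let-7Tg and WT at 12 h. At day 5, 1 was called between lin28Tg and let-7Tg without scaling, without a filter, with voom and with only the 6 libraries, and 0 between lin28Tg and WT without a filter or with only the 6 libraries. The replicate block, a term per number within each stage, lost 0 calls and added 14, all in comparisons of stages or of changes and given beside those results. It gave 7 members between day 5 and naive lin28Tg cells, and 2 for the day 5 change of lin28Tg against let-7Tg, as did voom, and changed no other count of called members by more than 1.5 times.

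Leaving out libraries gave 1 to 7 called members for lin28Tg against WT in naive cells, 4 to 7 against let-7Tg, 0 to 4 and 2 to 6 at 12 h, and 0 to 1 and 1 to 3 at day 5. For differences in the 12 h change it gave 0 to 2 for lin28Tg against WT and 1 to 2 against let-7Tg, and for the day 5 change 0 to 1 against WT, 0 to 3 against let-7Tg, and 0 to 1 for let-7Tg against WT. The lowest counts came mostly without all libraries of 1 replicate number, with 2 libraries a group: 71, 80 and 62 of the 88 calls were kept without numbers 1, 2 and 3. The fewest reads behind a value were 8 for Nr4a2 and 9 for Fos, so low levels of these are imprecise.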
